A study of Sus scrofa with 6 samples.

Results

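Of the 7566 lncRNAs with FPKM values (fragments per kilobase of transcript, scaled to the mapped reads of each sample) in pig skin, 30 were detected only in black skin. They were chosen by their values: at least 0.2 FPKM in all 3 black skin samples and below 0.1 FPKM in all 3 white skin samples, with the 13 rows of chromosome Y left out. They made up 0.397% of the 7553 lncRNAs on the other chromosomes and scaffolds. Because these same values selected them, the levels of the 30 lncRNAs in the 2 skins are a description here and carry no test.

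LncRNAs are transcripts of more than 200 bp without recognized coding potential. Some act near the gene they are transcribed from, others act at a distance by binding proteins or other RNAs, and the act of transcription can itself matter at a locus. They are usually less abundant and more restricted to certain tissues and cell types than mRNAs. In skin, lncRNAs are known from melanocytes, keratinocytes and fibroblasts, and those of the HOX clusters differ between body sites.

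The study compared pigmented and unpigmented skin of the Bama pig, a Chinese breed with black ends and a white belt. Adult females of 2 years were sampled, with the white skin taken at the back, the black skin at the buttocks, each to a depth of 8 mm, and the labels name no treatment. Samples numbered 1 to 3 in each skin were used for polyA RNA sequencing, and a shared number marks the same pig. Skin color and body site changed together in this design and cannot be told apart. In such bulk tissue, fewer cells of a type and less RNA per cell cannot be told apart either.

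No difference between the skins was detected in the number of lncRNAs. At least 0.2 FPKM was reached by 3431, 3287 and 3756 lncRNAs in the white skin samples, and by 3775, 3738 and 3164 in the black. The means were 3491 ± 240 in white skin and 3559 ± 343 in black skin (SD, n = 3; exact permutation test, two-sided, p = 0.9, with 0.1 the smallest p that 3 against 3 samples allow). This test did not use the pairing by pig. Black skin had more in pigs 1 and 2 and fewer in pig 3. The difference of 67.7 turned to -34.5 without white skin sample 2, to -40.3 without black skin sample 1 and to -21.8 without black skin sample 2. The reverse criterion (at least 0.2 FPKM in every white skin sample, below 0.1 in every black) found 91 lncRNAs, 1.20% of those outside chromosome Y.

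Of the lncRNAs below 0.1 FPKM in every white skin sample, 1608 were listed, and the 30 made up 1.87% of these. Another 217 reached 0.2 FPKM in 2 black skin samples, 1320 in 1 and 41 in none. So, most lncRNAs that were low throughout white skin were detected in a single black skin sample. Since each listed row exceeds 0.1 FPKM in at least 1 sample, a row low in all white skin samples had to be higher in a black one. For the reverse criterion, 1218 lncRNAs were below 0.1 FPKM in every black skin sample, and the 91 made up 7.47% of those.

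The 30 lncRNAs were of low abundance. Their mean FPKM in black skin ranged from 0.307 to 13.1 with a median of 0.557, against 0.262 over all lncRNAs outside chromosome Y. For the other lncRNAs with at least 0.2 FPKM in every black skin sample, the median was 0.947. The mean was above 1 FPKM for 7 of the 30, and 3 exceeded 1 FPKM in every black skin sample. In white skin, 71 of the 90 values were listed as 0, and 17 of the 30 lncRNAs were at 0 in all 3 samples. The 19 values above 0 lay between 0.0421 and 0.0986 FPKM and came from all 3 white skin samples (6, 4 and 9 values in samples 1, 2 and 3). TCONS_00001928 was the single lncRNA of the 30 with a value above 0 in every white skin sample. Whether a listed 0 stands for absence or for an estimate that failed was not tested.

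**Figure D1:**
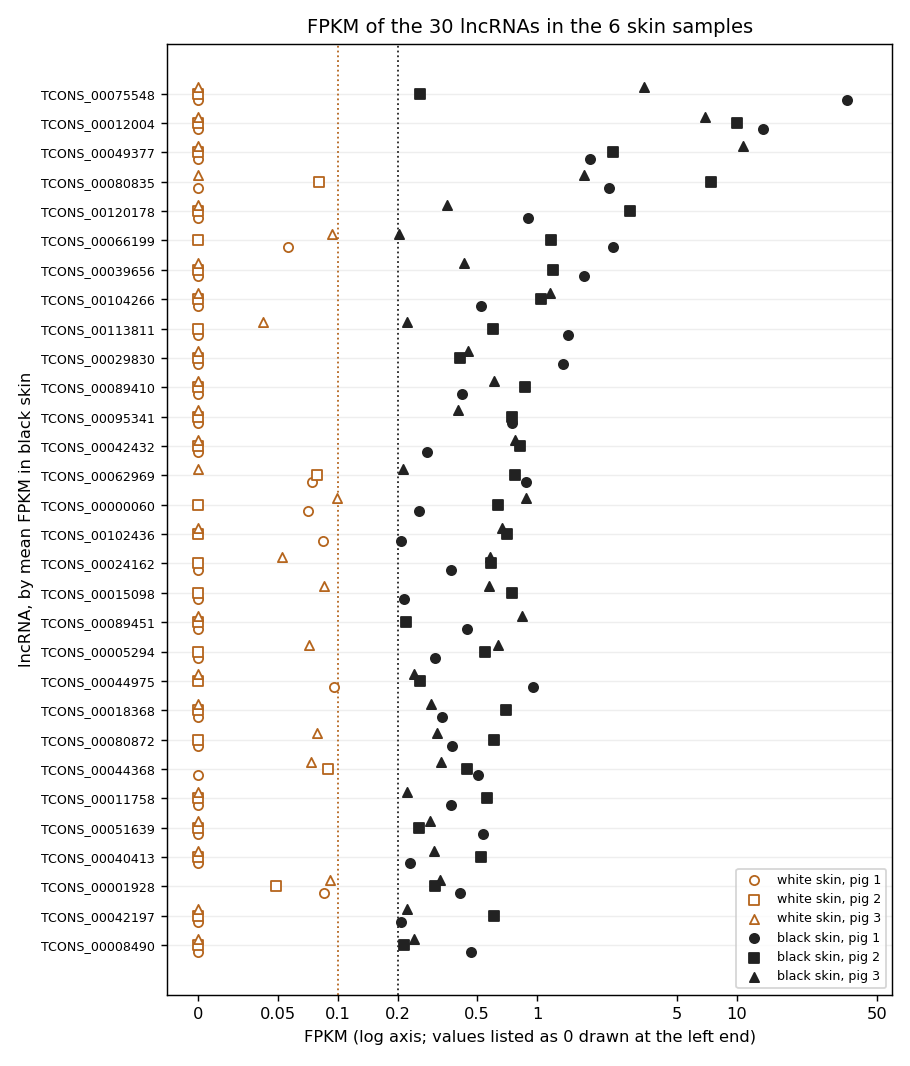
FPKM (log axis, with values listed as 0 drawn at the left end) of the 30 black-only lncRNAs, ordered by mean FPKM in black skin. Open symbols are white skin and filled symbols black skin, with 1 marker shape per pig, and the dotted lines mark 0.1 and 0.2 FPKM, the limits that chose the rows; the top 4 lncRNAs stand above the rest, and TCONS_00075548 spreads from 0.260 to 35.6 FPKM in black skin.

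The highest mean belonged to TCONS_00075548 (chromosome 4, 96693679 to 96697782, minus strand), at 13.1 ± 19.5 FPKM in black skin (SD, n = 3). Its values were 35.6, 0.260 and 3.42 FPKM in the black skin of pigs 1, 2 and 3, and it was listed at 0 in all white skin samples. The level thus came almost wholly from pig 1, and in pig 2 the lncRNA only just passed the limit. Its range lies in the epidermal differentiation complex, a cluster of genes of the cornified skin layer. The gene of involucrin (IVL), a protein of the cornified envelope, was 36.1 kb away by its listed locus, and KPRP, a proline-rich keratinocyte protein, 52.7 kb. IVL had 343, 6.78 and 13.1 FPKM in black skin and 5.89, 2.55 and 39.4 FPKM in white skin, so that black skin of pig 1 was the highest here too. The difference of IVL between the skins did not pass (log2 fold change 1.82 ± 1.45 (SE), adjusted p = 0.426, limma with Benjamini-Hochberg adjustment).

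TCONS_00012004 (chromosome 10, 24962726 to 24969062, minus strand) was the most even of the abundant lncRNAs. It reached 13.4, 10.04 and 6.94 FPKM in black skin, with a mean of 10.1 ± 3.26 (SD, n = 3), and was listed at 0 in all white skin samples. Its highest value was 1.94 times its lowest. It overlaps LOC102162336, a gene that RefSeq lists as coding, and CYB5R1, a cytochrome b5 reductase gene, is the nearest mRNA with a listed locus at 31.0 kb.

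TCONS_00049377 (chromosome 18, 50458923 to 50463101, plus strand) had 1.84, 2.38 and 10.7 FPKM in black skin and was listed at 0 in all white skin samples. Here, pig 3 was the highest by far, unlike for TCONS_00075548. It lies between CCM2, a scaffold protein of endothelial junctions (8.48 kb), and MYO1G, a myosin of blood cells (3.35 kb), and overlaps the RefSeq lncRNA gene LOC100739791.

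TCONS_00080835 (chromosome 5, 19178434 to 19178784, minus strand) lies inside the HOXC cluster, a row of homeobox genes that encode position along the body. It had 2.28, 7.43 and 1.72 FPKM in black skin. In white skin, sample 2 had 0.0808 FPKM and the other two were listed at 0. All black skin samples were far above all white ones. HOXC11 was 2.80 kb away on one side and HOXC12 8.75 kb on the other, and the range overlaps the RefSeq lncRNA gene LOC110260667. In human, the lncRNA gene HOTAIR lies between HOXC11 and HOXC12, but no identifier in the files pairs this pig row with it.

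The next 6 lncRNAs by mean had between 0.733 and 1.39 FPKM. TCONS_00120178 on chromosome X had 0.896, 2.91 and 0.351 FPKM in black skin. TCONS_00066199 on chromosome 3, 8.45 kb from CUX1, a homeobox gene, had 2.38, 1.17 and 0.202 FPKM, so that pig 3 was only just inside the limit. TCONS_00039656 (chromosome 15, 124915327 to 124918536, plus strand) had 1.71, 1.20 and 0.429 FPKM and overlaps KCNE4, which encodes a regulatory subunit of potassium channels. These 3 were lowest in pig 3. TCONS_00120178 was highest in pig 2, and TCONS_00066199 and TCONS_00039656 were highest in pig 1.

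TCONS_00104266 on chromosome 8 had 0.524, 1.04 and 1.15 FPKM in black skin and overlaps NFKB1, which encodes a subunit of the transcription factor NF-kappa-B. TCONS_00113811, on an unplaced scaffold and with a range of just 21 bp, had 1.43, 0.601 and 0.223 FPKM. TCONS_00029830 on chromosome 13 had 1.34, 0.411 and 0.449 FPKM and lies 190 bp from IFNGR2, a chain of the receptor for interferon gamma. Of these 6 lncRNAs, 4 were listed at 0 in all white skin samples, and TCONS_00066199 and TCONS_00113811 were at up to 0.0934 and 0.0421 FPKM there. The other 20 lncRNAs had black skin values between 0.208 and 0.947 FPKM.

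The pigs did not rank the same way for all 30. The highest black skin value came from pig 1 for 13 lncRNAs, from pig 2 for 12 and from pig 3 for 5. The lowest came from pig 1 for 11, from pig 2 for 6 and from pig 3 for 13. The highest of the 3 black skin values was a median 2.91 times the lowest, from 1.33 times for TCONS_00001928 to 137 times for TCONS_00075548, against a median of 2.48 for the other lncRNAs detected in all black skin samples. Summed, the 30 lncRNAs gave 69.9, 38.5 and 34.5 FPKM in the black skin of pigs 1, 2 and 3, and 0.467, 0.298 and 0.688 FPKM in white skin. The 4 most abundant carried 76.0%, 52.2% and 65.9% of the black skin sums, and TCONS_00075548 alone 50.9%, 0.674% and 9.92%.

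Some lncRNAs lay close to the limits. Just inside the lower limit were TCONS_00066199 with a lowest black skin value of 0.202 FPKM, TCONS_00102436 with 0.208 and TCONS_00042197 with 0.209. Just outside it were TCONS_00032589 with 0.194 FPKM, TCONS_00113996 with 0.192 and TCONS_00069715 with 0.185. On the white skin side, TCONS_00000060 had a highest value of 0.0986 FPKM, TCONS_00044975 of 0.0957 and TCONS_00066199 of 0.0934. TCONS_00038238 with 0.106 FPKM, TCONS_00010134 with 0.111 and TCONS_00073975 with 0.114 fell just outside.

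All 30 lncRNAs were assembled by the authors and carry no annotated identifier, as did all but 64 of the 7523 other lncRNAs outside chromosome Y. They were spread over 17 of the 19 assembled chromosomes looked at, and 1 was on an unplaced scaffold. Chromosomes 1 and 15 held 4 each, and chromosomes 9 and 14 none. For chromosome 15, this was 1.14% of its 351 lncRNAs. The closest pair, TCONS_00080835 and TCONS_00080872 on chromosome 5, was 306 kb apart, so that no 2 of the 30 lay within 100 kb of each other. On the minus strand were 19 and on the plus strand 11 (63.3% minus, against 48.9% of the other lncRNAs and 50.5% of the 91 white-only lncRNAs).

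Their listed ranges were short. The median was 240 bp, against 504 bp for the other lncRNAs and 1088 bp for the white-only lncRNAs. A range under 200 bp was listed for 13 (43.3%, against 28.4% of the others and 17.6% of the white-only ones), and of at least 1000 bp for 9 (30%, against 39.1% and 51.6%). The longest was TCONS_00024162 on chromosome 13 with 23769 bp, followed by TCONS_00012004 with 6337 bp, TCONS_00044368 with 5891 bp, TCONS_00049377 with 4179 bp and TCONS_00075548 with 4104 bp. Of the 10 with the highest mean, 4 had at least 1000 bp. The listed range is not the whole transcript, however. For 12 of the 30 the supplement gives a locus, which contained the listed range each time and was between 1.12 and 250 times as long (median 3.60).

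**Figure D2:**
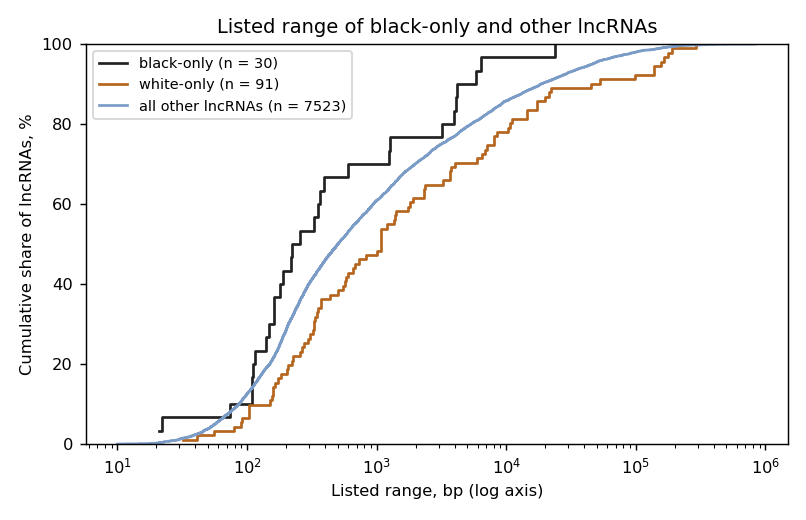
Cumulative share (%) of lncRNAs by listed range (bp, log axis) for the 30 black-only lncRNAs, the 91 white-only lncRNAs and the 7523 lncRNAs outside the black-only set. The black-only curve lies to the left of the others over most of the axis, with medians of 240, 1088 and 504 bp in that order.

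Relative to RefSeq genes of Sscrofa11.1, the shares among the 30 lncRNAs were near those of the rest. Of the 29 on chromosomes of that gene table, 10 overlapped a coding gene (34.5%, against 38.6% of 7356 others), 11 a lncRNA gene of RefSeq (37.9%, against 31.6%) and 8 neither. Within 10 kb of a coding gene were 19 (65.5%, against 62.7%), and the median gap was 2.94 kb, against 2.19 kb. Besides those named above, coding genes overlapped were FUK by TCONS_00089410, RREB1 by TCONS_00095341, TFAP4 by TCONS_00062969, ZNF19 and ZNF23 by TCONS_00089451, CSGALNACT1 by TCONS_00044975, CBX5 by TCONS_00080872 and CDKN2B by TCONS_00008490. RREB1, TFAP4 and both ZNF genes encode DNA-binding proteins, CBX5 heterochromatin protein 1 alpha, and CDKN2B an inhibitor of cyclin-dependent kinases. By their listed loci, CSGALNACT1 (150983 bp away) and CDKN2B (15.6 kb away) do not overlap these lncRNAs. The strand of the overlapped genes was not used, so an overlap may be sense or antisense. Reads of a gene and of an overlapping lncRNA may be hard to tell apart.

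The name black-only applies to the rows of the file and not always to the locus. For 10 of the 30, 18 other lncRNA rows overlapped on the same strand. After the overlapping rows were summed, 1 of these 10 still met the limits (TCONS_00042197), while the other 9 reached 0.1 FPKM in at least 1 white skin sample. With the 20 that no row overlapped, 21 of 30 loci met the limits. Every black skin sum exceeded every white one for 2 of the 10, TCONS_00042197 and TCONS_00080835.

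For the other 8 of the 10, the skins overlapped after summing, among them 3 of the 4 most abundant lncRNAs. The row over TCONS_00012004 is the annotated lncRNA ENSSSCG00000032301, with 6.29, 4.60 and 7.53 FPKM in white skin and 1.64, 13.8 and 0.434 FPKM in black skin. Together they gave 6.29, 4.60 and 7.53 FPKM in white skin and 15.1, 23.8 and 7.37 FPKM in black skin. The skins then overlapped, with white skin of pig 3 slightly above black skin of pig 3. For TCONS_00049377, 8 overlapping rows brought the sums to 22.1, 18.6 and 18.6 FPKM in white skin and to 20.6, 31.8 and 16.1 FPKM in black skin, so that the skins overlapped fully. TCONS_00049372, one of these rows, had 12.4, 11.0 and 11.8 FPKM in white skin and 12.1, 20.1 and 1.33 FPKM in black skin.

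TCONS_00075548 with its 1 overlapping row summed to 1.78, 0 and 2.89 FPKM in white skin and 40.2, 0.426 and 3.96 FPKM in black skin, where black skin of pig 2 fell below 2 of the white samples. At the HOXC locus of TCONS_00080835, the sums with 2 more rows were 0, 0.327 and 0.156 FPKM in white skin and 2.41, 7.95 and 4.55 FPKM in black skin. Those skins stayed apart. The lowest black skin sum there was well above the highest white one.

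**Figure D3:**
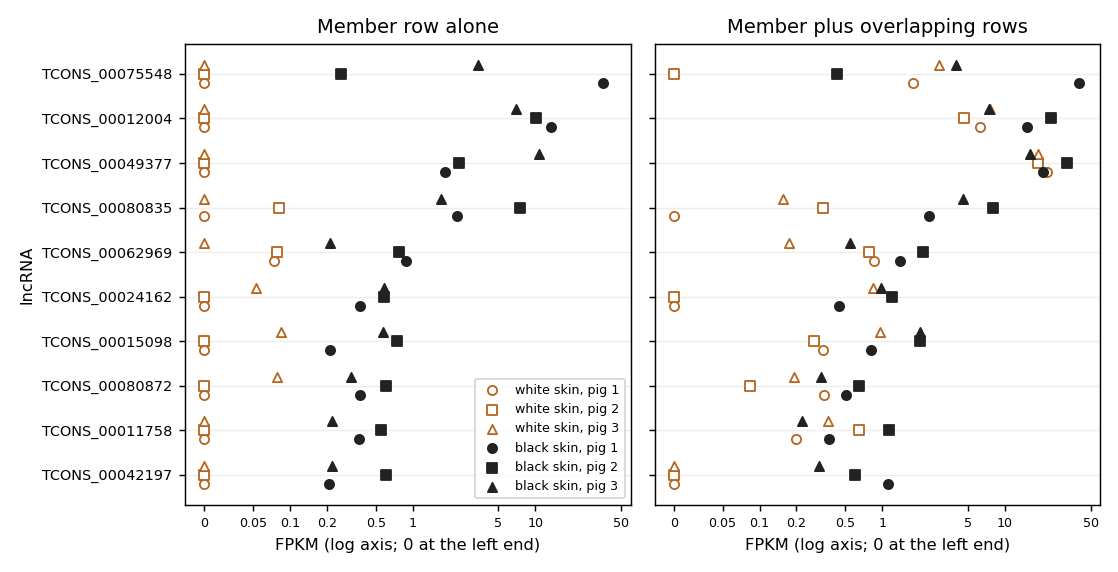
FPKM (log axis, 0 drawn at the left end) of the 10 black-only lncRNAs that other lncRNA rows overlap on the same strand, alone (left) and summed with those rows (right), with open symbols for white and filled symbols for black skin and 1 marker shape per pig. Alone, every white value is below 0.1 FPKM; summed, TCONS_00012004 and TCONS_00049377 reach 7.53 and 22.1 FPKM in white skin, while TCONS_00080835 and TCONS_00042197 keep the skins apart.

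The mRNA values next to the 30 lncRNAs were not used to choose them, so the difference of these mRNAs between skins was tested. Where a lncRNA overlaps the gene, as for KCNE4, reads may be shared, so that test may not be independent of the choice. Loci were taken from the supplement, which gives one for 2692 of the 14900 mRNAs and favors genes that the authors called different in these same samples. Within 100 kb of the 30 lncRNAs were 26 mRNAs with a listed locus. Of these, 7 were higher in black skin and 0 lower (adjusted p below 0.05 and a log2 fold change beyond 1 in either direction, limma on log2(FPKM + 0.5) over all mRNAs with Benjamini-Hochberg adjustment). With the same limit on the log2 fold change but an unadjusted p below 0.05, 15 (57.7%) were higher and 2 (7.69%) lower, against 43.9% and 9.35% of 1657 mRNAs with a listed locus near other lncRNAs.

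Over all mRNAs, 3.62% were called higher in black skin and 2.62% lower, but of those with a listed locus 16.5% were called higher and 4.53% lower. The 7 of 26 (26.9%) are to be read against the latter, and against 17.2% higher and 4.89% lower among the 1657 near other lncRNAs. The median log2 fold change of the 26 was 1.29, against 1.00 for those 1657 and 0.31 for all mRNAs. For 15 of the 26 (57.7%), every black skin sample exceeded every white one, for 5 (19.2%) the reverse held, and for 6 the skins overlapped. These shares were near those of all mRNAs with a listed locus, at 52.1% and 18.6%.

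HOXC10, a posterior homeobox gene 19.02 kb from TCONS_00080835, changed most among the 7. It had 0.0425, 0.215 and 0.0532 FPKM in white skin and 2.08, 2.82 and 4.19 FPKM in black skin, with no overlap between the skins (log2 fold change 2.52 ± 0.32 (SE), adjusted p = 0.0113, limma with Benjamini-Hochberg adjustment). The other HOXC genes near TCONS_00080835 did not pass. HOXC11, the closest, had 0.300, 0.455 and 0.229 FPKM in white skin and 0.0972, 0.853 and 0.773 FPKM in black skin, which overlapped.

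KCNE4, which TCONS_00039656 overlaps, was the single mRNA with a listed locus within 10 kb of any of the 30. It had 1.20, 0.720 and 0.507 FPKM in white skin and 5.40, 3.91 and 3.62 FPKM in black skin, where all samples were above the white ones (log2 fold change 1.89 ± 0.31 (SE), adjusted p = 0.0201, limma with Benjamini-Hochberg adjustment). The lncRNA followed the order of pigs 1, 2 and 3 that KCNE4 had in black skin. Its range lies inside the listed KCNE4 locus and ends at the same position (124918536), so reads may be shared. The lncRNA row may thus not be separate from the KCNE4 transcript. Whether the lncRNA and KCNE4 vary together was not tested.

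LGALS12, a galectin gene of fat cells 10.1 kb from TCONS_00051639, had 0.813, 0.415 and 0.666 FPKM in white skin and 3.99, 4.26 and 3.36 FPKM in black skin, again without overlap (log2 fold change 1.96 ± 0.28 (SE), adjusted p = 0.0137, limma with Benjamini-Hochberg adjustment). THBS2, an extracellular matrix glycoprotein gene 14.8 kb from TCONS_00000060, rose by 1.36 ± 0.29 on the log2 scale from 57.2 ± 1.48 to 155 ± 53.5 FPKM (SD, n = 3; adjusted p = 0.0358 by limma with Benjamini-Hochberg adjustment). GLIS2, a zinc finger transcription factor gene near TCONS_00062969, rose by 1.75 ± 0.34 (adjusted p = 0.0300 by limma with Benjamini-Hochberg adjustment). ZNF385A, a zinc finger gene near TCONS_00080872, rose by 1.64 ± 0.32 (adjusted p = 0.0305 by limma with Benjamini-Hochberg adjustment). COL6A2, which encodes a collagen VI chain and lies near TCONS_00113811, rose by 1.44 ± 0.34 (adjusted p = 0.0468 by limma with Benjamini-Hochberg adjustment). All samples of black skin were above those of white skin for these genes. TCONS_00062969 and TCONS_00080872, however, were among the lncRNAs for which the skins overlapped once overlapping rows were summed.

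With the pig as a block, COL6A2 no longer passed (adjusted p = 0.0575, limma with Benjamini-Hochberg adjustment), while PLSCR4 (0.0155), FGF18 (0.0308), VASN (0.0335) and ST3GAL2 (0.0446) did, so that 10 of 26 (38.5%) were higher and 0 lower. The block raised the calls in general, to 28.8% of the 1657 near other lncRNAs and from 539 to 957 of all mRNAs. By limma with Benjamini-Hochberg adjustment, KCNE4 (adjusted p = 0.0501) and ZNF385A (0.0781) did not pass after quantile normalization, nor did COL6A2 (0.0722) after upper-quartile scaling. The count of 7 depended on single samples, as did the calls over all mRNAs. It was 4 without white skin sample 1, 0 without white skin sample 2, and 2 each without white skin sample 3, black skin sample 2 or black skin sample 3. For the 0 without white skin sample 2, limma gave 12 at an unadjusted p below 0.05 with the same limit on the fold change. In the same 5 fits, the 539 mRNAs higher over the whole table fell to 99, 7, 97, 83 and 53.

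RefSeq positions do not depend on what the authors called, but genes were placed by symbol, with those of the supplement used where given. Which genes were placed thus depended in part on the supplement. With RefSeq loci instead of the listed ones, 71 mRNAs lay within 100 kb of 26 of the lncRNAs. Of these, 7 were higher in black skin (9.86%) and 1 lower (1.41%), against 4.13% and 2.63% of all 11586 mRNAs placed this way. Near other lncRNAs, 4.20% of 6974 were higher and 2.65% lower. The median log2 fold change was 0.37 for the 71 and 0.33 for the 6974. COL6A2 was not placed, and CSGALNACT1, a chondroitin sulfate synthesis gene, was added (log2 fold change 1.78 ± 0.37 (SE), adjusted p = 0.0330, limma with Benjamini-Hochberg adjustment). By RefSeq TCONS_00044975 overlaps CSGALNACT1, so reads may be shared, whereas the listed locus of CSGALNACT1 lies 150983 bp away. The lower one was SRL, which encodes sarcalumenin, a calcium-binding protein of striated muscle, 26.6 kb from TCONS_00062969 (log2 fold change -3.06 ± 0.48 (SE), adjusted p = 0.0181, limma with Benjamini-Hochberg adjustment).

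**Figure D4:**
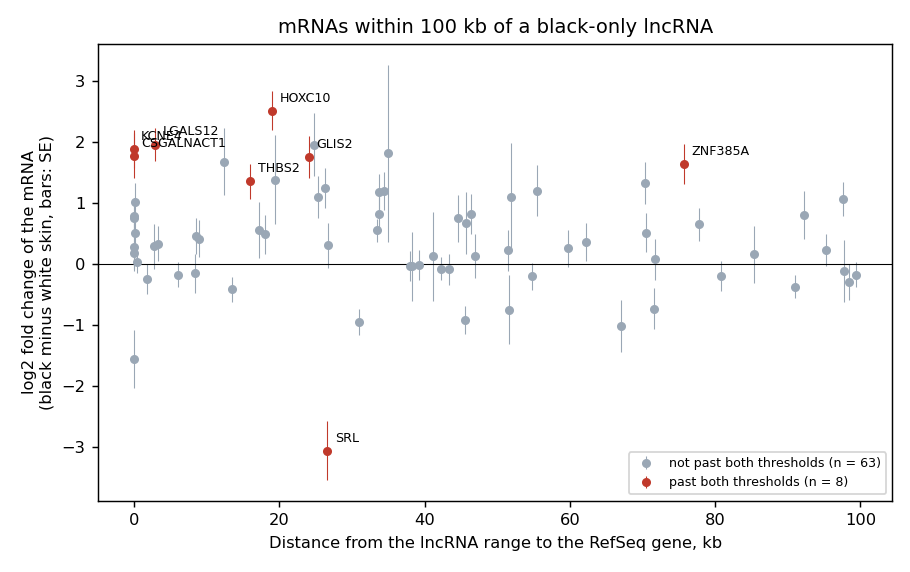
Log2 fold change (black minus white skin, points with SE bars) of the 71 mRNAs within 100 kb of a black-only lncRNA by RefSeq locus, against their distance (kb). Red marks the 8 past both thresholds, 7 above zero and SRL below it, and 49 of the 71 points lie above zero (69.0%, against 70.4% near other lncRNAs).

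Marker genes of several cell types differed between the skins along with these lncRNAs. Markers are genes typical of a cell type, the values are their FPKM summed per list, and calls are those of limma with Benjamini-Hochberg adjustment and the thresholds above. Melanocyte genes (9 of 10 found, 5 higher) summed to between 6.90 and 10.5 FPKM in white skin and to 190, 41.8 and 51.2 FPKM in black skin, with TYR, the rate-limiting enzyme of melanin synthesis, listed at 0 in all white skin samples and in black skin of pig 3. Hair shaft and inner root sheath genes (10 of 12 found) ranged from 0.196 to 200.03 FPKM in white skin and reached 12102, 467 and 268 FPKM in black skin. By limma, 0 of these passed, with 7 higher at an unadjusted p below 0.05 and 6 higher with the pig as a block. Black skin of pig 1, which carried most of TCONS_00075548, was the highest sample for the hair and melanocyte sums and for IVL. It was also the highest for the fibroblast, interfollicular keratinocyte and posterior HOX sums. The posterior HOX sum there was mostly HOXC13, at 14.3 of 20.9 FPKM. The fat, endothelium, and T cell and macrophage sums were highest in black skin of pig 3. The skeletal muscle and gland sums were highest in white skin of pig 2.

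Of the posterior HOX genes (8 of 11 found), 3 were higher, namely HOXA10, HOXA11 and HOXC10. The sum of the 8 found was 2.29 to 3.90 FPKM in white skin and 17.5 to 20.9 FPKM in black skin. HOXC13 was not called (adjusted p = 0.248, limma with Benjamini-Hochberg adjustment). It had 14.3, 1.92 and 2.06 FPKM in black skin of pigs 1, 2 and 3, and 1.07, 0.539 and 2.66 FPKM in white skin. Fat genes (5 of 5 higher) summed to 128 to 481 FPKM in white skin and 785 to 1803 FPKM in black skin, and endothelium genes (4 of 4 higher) to 34.9 to 43.2 FPKM and 88.7 to 197 FPKM. Fibroblast genes (1 of 6 higher, 3 with the pig as a block) summed to 2245 to 4806 FPKM and 5891 to 10271 FPKM. By limma, 6 of these 6 were higher at an unadjusted p below 0.05. T cell and macrophage genes (1 of 5 higher, 2 with the block, 1 at an unadjusted p below 0.05) summed to 6.14 to 19.2 FPKM and 17.9 to 58.7 FPKM. Interfollicular keratinocyte genes (3 of 7 found, 0 called by limma, also at an unadjusted p below 0.05) summed to 45.7 to 648 FPKM in white skin and 260 to 783 FPKM in black skin. Lower in black skin were 1 of the 2 skeletal muscle genes found (of 6), with sums of 29.8 to 66.4 FPKM and 1.41 to 5.01 FPKM, and 1 of 5 sweat and sebaceous gland genes, with sums of 5168 to 10488 FPKM and 1020 to 1496 FPKM. The muscle sums were mostly those of CKM, the one called, with 45.8, 66.2 and 28.0 FPKM in white skin. ACTA1, the other found, had 0.0298, 0.194 and 1.77 FPKM there and was not called. The gland sums were mostly those of SCD, a fatty acid desaturase gene and the one called. KRT7, KRT18 and AQP5 together had 13.9 to 73.2 FPKM in white skin and 9.58 to 62.5 FPKM in black skin, which overlapped. The part of these cell types in the 30 lncRNAs was not tested.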

How the data were processed

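PolyA RNA of 3 white and 3 black skin samples was sequenced. The deposited FPKM were calculated by the authors with StringTie 1.3.3 for transcripts assembled and merged on Sscrofa11.1, after coding transcripts were removed. For mapping, the submitters' processing notes list HISAT2 2.0.4, whereas the study's methods name TopHat. Depth behind an FPKM is not given, so no counting interval was computed. FPKM depend on the length of the assembled model, and reads shared by overlapping models are divided by estimation.

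The members and lists were chosen with earlier results of these data known. mRNAs were fitted with limma 3.58.1 (R 4.3.3, trend, log2(FPKM + 0.5), 14900 mRNAs) without the pig, and with the pig as a block beside it. The pairing was taken from the number in the sample titles. Same-numbered samples deviated together (r = 0.208, 0.360 and 0.204 for pigs 1, 2 and 3), but samples of different numbers were not compared. The fit was tested on simulated data. Nearest genes were taken from the supplement and the RefSeq gene table. Other steps ran in Python 3.11.15 with SciPy 1.17.1 and pandas 2.3.3. Named were the 10 lncRNAs with the highest mean, the 5 longest, those within 10 kb of a listed mRNA and 3 on each side of each limit, and mRNAs within 10 kb or past both thresholds within 100 kb. Genes named from RefSeq, from marker lists or for their place beside a named lncRNA were added after values were seen. Marker lists were those for melanocytes, hair shaft and inner root sheath, keratinocytes, fibroblasts, fat, skeletal muscle, endothelium, T cells and macrophages, glands and posterior HOX genes. Alternatives were other limits, scalings, pseudocounts, filters, distances and loci, and leaving out each sample.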

Additional observations from a re-analysis of the deposited data

How the results depend on the processing

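The number of black-only lncRNAs followed the limits. It was 89 with at least 0.1 FPKM asked of black skin, 4 with at least 0.5, 17 with 0 in every white skin sample, 76 with below 0.2 in white skin and 17 with a range of 200 bp or more, and 56 to 108 when each sample was left out in turn, where fewer samples were asked to meet the limits. With FPKM scaled to the same mRNA sum it was 34, which held all 30, and with the same upper quartile 22, all of them among the 30. Chromosome Y added none. Loci that met the limits after summing were 21, or 15 with rows within 10 kb, an alternative chosen after seeing the data, and 21 to 22 when each sample was left out.

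The 7 mRNAs called higher became 15 with p before adjustment, 1 within 10 kb, 13 within 500 kb, 10 with the replicate block for the pig, 5 with quantile normalization (without KCNE4, adjusted p = 0.0501, and ZNF385A, 0.0781), 6 with upper-quartile scaling (without COL6A2, 0.0722), 6 without the trend (without COL6A2, 0.0578), all by limma with Benjamini-Hochberg adjustment, and 0 to 6 when each sample was left out. The 0 called lower became 2 with quantile normalization, 2 with upper-quartile scaling (CYB5R1 and SECISBP2L in both), 2 with p before adjustment, 1 within 500 kb, 1 with RefSeq loci and 0 when any sample was left out. Over all mRNAs, 539 were higher and 391 lower, but 217 and 483 with quantile normalization and 281 and 571 with upper-quartile scaling, which moved the median log2 fold change of all mRNAs from 0.31 to 0.03 and 0.12. For the 7 mRNAs, 59 of 91 alternative values kept their side of the threshold, 32 lost it and 0 turned direction. The difference in lncRNAs per sample ranged from -40.3 to 265 when each sample was left out, with -34.5, -40.3 and -21.8 on the other side of 0. The cause of these shifts was not tested. The depth behind the low FPKM is unknown, so a black skin value near 0.2 and a white skin value near 0.1 may be hard to tell apart.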

Other observations

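The 13 rows of chromosome Y held no lncRNA that met the limits, but 3 of them had at least 0.2 FPKM in all 6 samples, although the study's methods describe female pigs.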
